A study of Mus musculus with 12 samples.

Results

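The genes for islet hormones and for proteins of the hormone storage granule were followed across mouse pancreatic cells on 12 Affymetrix arrays. The list held 10 genes, Ins1, Ins2, Gcg, Sst, Ppy, Iapp, Pyy, Chga, Chgb and Pcsk2, and a gene was measured where a probe set (a group of short oligonucleotides that reads 1 transcript) carried its symbol alone in the platform annotation. 8 of the 10 genes were measured in this way, by 11 probe sets out of 45101 on the array, against 18193 measured genes in all. Iapp had 4 probe sets and the other 7 genes had 1 each. Ins1 and Pcsk2 had no such probe set listed and were not analysed here. All 11 probe sets passed the filter on low values. Those of Gcg and Pyy and all 4 of Iapp, 6 in all, passed on the Acini arrays alone, so a lower organoid level was built into their passing.

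The 3 groups had 4 arrays each, called A to D in the labels. yDucts were organoids raised from acini of R26-rtTA; tetO-YAP S127A mice, in which doxycycline had switched on a mutant YAP, the transcriptional coactivator that the Hippo pathway restrains. They were then passaged without the drug. The transgene has no cell type of its own in this genotype, since rtTA is expressed from the Rosa26 locus. Ducts were organoids grown from hand-picked fragments of native ducts, with no induced YAP. Acini were freshly isolated from the pancreas of young adult mice by enzymatic digestion and straining, with no cell sorting. Both kinds of organoid were kept in Matrigel with the same medium, which holds EGF, Noggin, FGF10, R-Spondin1, nicotinamide and gastrin. The genotype behind the Acini and Ducts arrays is not given in the labels. The labels call the arrays biological replicas without saying whether each had its own animal or culture, so a p-value here sets a difference against variation among the arrays, some of which may be technical.

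The endocrine pancreas consists of islets scattered through the exocrine tissue. Beta cells secrete insulin together with amylin, alpha cells glucagon, delta cells somatostatin, and PP cells pancreatic polypeptide. Each hormone is made as a longer precursor, cut by prohormone convertases inside dense-core granules that also hold chromogranins, and released when the granule fuses with the cell membrane. Acinar cells store digestive enzymes in granules of a different kind, and duct cells secrete bicarbonate-rich fluid and make none of these hormones in quantity. The mouse has a pair of insulin genes, Ins1 and Ins2, that are near-identical copies. The Ins2 probe set is of the class (_x_at) that may also bind related transcripts, so its value cannot be assigned to Ins2 without Ins1.

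The stretch in front of the start site is shown for 4 genes of the list. The sequences are the 250 bases before the RefSeq transcript start in build GRCm38.p6, read 5′ to 3′ on the gene's own strand. Capitals mark 2 motifs. The first is TGACGTCA, the palindromic cAMP response element (CRE). The second is TAAT or its reverse complement ATTA, the core that homeodomain factors recognise, and copies that overlap are merged in capitals. Both strands were searched. Sst and Chgb are shown as the pair that holds the CRE, Iapp as the gene with the most homeodomain cores, and Gcg as the alpha cell gene.
Sst, chr16:23890845-23891094, minus strand: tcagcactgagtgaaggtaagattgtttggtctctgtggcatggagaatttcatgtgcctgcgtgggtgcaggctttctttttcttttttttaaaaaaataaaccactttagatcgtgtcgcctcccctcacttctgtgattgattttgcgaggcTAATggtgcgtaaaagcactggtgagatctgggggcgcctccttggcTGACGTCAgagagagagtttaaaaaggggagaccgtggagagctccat
Chgb, chr2:132781392-132781641, plus strand: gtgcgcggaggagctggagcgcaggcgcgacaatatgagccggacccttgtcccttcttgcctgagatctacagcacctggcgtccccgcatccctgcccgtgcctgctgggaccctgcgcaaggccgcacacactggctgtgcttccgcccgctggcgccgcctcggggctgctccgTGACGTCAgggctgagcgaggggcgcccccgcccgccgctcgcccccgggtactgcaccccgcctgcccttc
Iapp, chr6:142298175-142298424, plus strand: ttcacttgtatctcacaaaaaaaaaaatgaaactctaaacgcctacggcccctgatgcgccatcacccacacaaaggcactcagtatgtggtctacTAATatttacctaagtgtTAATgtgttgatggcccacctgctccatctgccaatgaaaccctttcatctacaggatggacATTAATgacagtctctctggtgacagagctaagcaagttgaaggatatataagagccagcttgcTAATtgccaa
Gcg, chr2:62483654-62483903, minus strand: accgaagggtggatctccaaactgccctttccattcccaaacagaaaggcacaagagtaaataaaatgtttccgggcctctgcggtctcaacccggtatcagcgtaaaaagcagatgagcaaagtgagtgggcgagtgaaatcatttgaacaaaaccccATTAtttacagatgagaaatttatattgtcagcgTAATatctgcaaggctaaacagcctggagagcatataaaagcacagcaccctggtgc
A promoter was given for 7 of the 8 measured genes, all except Ins2. The CRE was found in 2 of the 7, beginning 48 bases before the start of Sst and 72 bases before that of Chgb, and in 1.55% of 32851 mouse promoters of the same length. The homeodomain core was found in 4 of the 7, with 5 copies in Iapp, 2 in Gcg and 1 each in Sst and Chga, and in 54.9% of all promoters. These matches describe the letters only.

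Values are log2 expression as deposited, in which 1 unit is a 2-fold step. The 30th percentile of each array served as its background level. It averaged 3.20 ± 0.01 in yDucts, 3.21 ± 0.02 in Ducts and 3.72 ± 0.06 in Acini (SD, n = 4 each), so dim probe sets tended to read higher in Acini. Among 12629 probe sets whose means were below background in both kinds of organoid, the median difference was -0.59 in yDucts minus Acini and -0.57 in Ducts minus Acini, with a 5th percentile of -1.46 and -1.43. The arrays also differed in the ratio of the 3′ to the 5′ probe sets of Gapdh, a sign of RNA length. The log2 difference ran from -0.17 to -0.12 in yDucts, -0.07 to 0.02 in Ducts and 1.29 to 1.91 in Acini. Replicates correlated at 0.99 to 0.997 in yDucts, 0.959 to 0.995 in Ducts and 0.941 to 0.962 in Acini. Of 7 duct markers 4 were higher in each kind of organoid, where 39.7% of all tested probe sets were higher in yDucts and 40% in Ducts. Onecut1 was lower in Ducts (-1.07, adjusted p = 0.00382), and Sox9 and Cftr did not pass the test in either. All 9 acinar markers were lower in each kind of organoid, against 31.6% of all tested probe sets in yDucts and 31.2% in Ducts. Of these markers Cpb1 and Cela2a passed the filter on the Acini arrays alone, which fixed their lower direction. Krt19, a keratin of duct cells, was 4.67 higher in yDucts and 4.75 higher in Ducts than in Acini, and Cpa1, a digestive enzyme of acinar cells, had differences of -11.29 in yDucts and -11.31 in Ducts.

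Every one of the 11 probe sets was lower in both kinds of organoid than in Acini, and none separated yDucts from Ducts by the test. In yDucts against Acini, 11 of 11 were called lower at an adjusted p under 0.05 (limma, Benjamini-Hochberg over 33436 tested probe sets), where 31.6% of all tested probe sets were lower. In Ducts against Acini, 11 of 11 were again lower, against 31.2% of all tested. The lowest Acini value was above the highest organoid value for all 11 in both comparisons, against 28.0% of all tested probe sets for yDucts and 24.9% for Ducts. Gcg, Pyy and every Iapp probe set passed the filter on the Acini arrays alone, which fixed this order and the lower direction. For them these counts are not a test. The median difference of the 11 was -2.84 for yDucts and -2.96 for Ducts, beside 0.13 and 0.16 over all tested. The comparisons share their 4 Acini arrays. In bulk RNA, fewer cells of a type and less RNA per cell cannot be told apart.

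**Figure D1:**
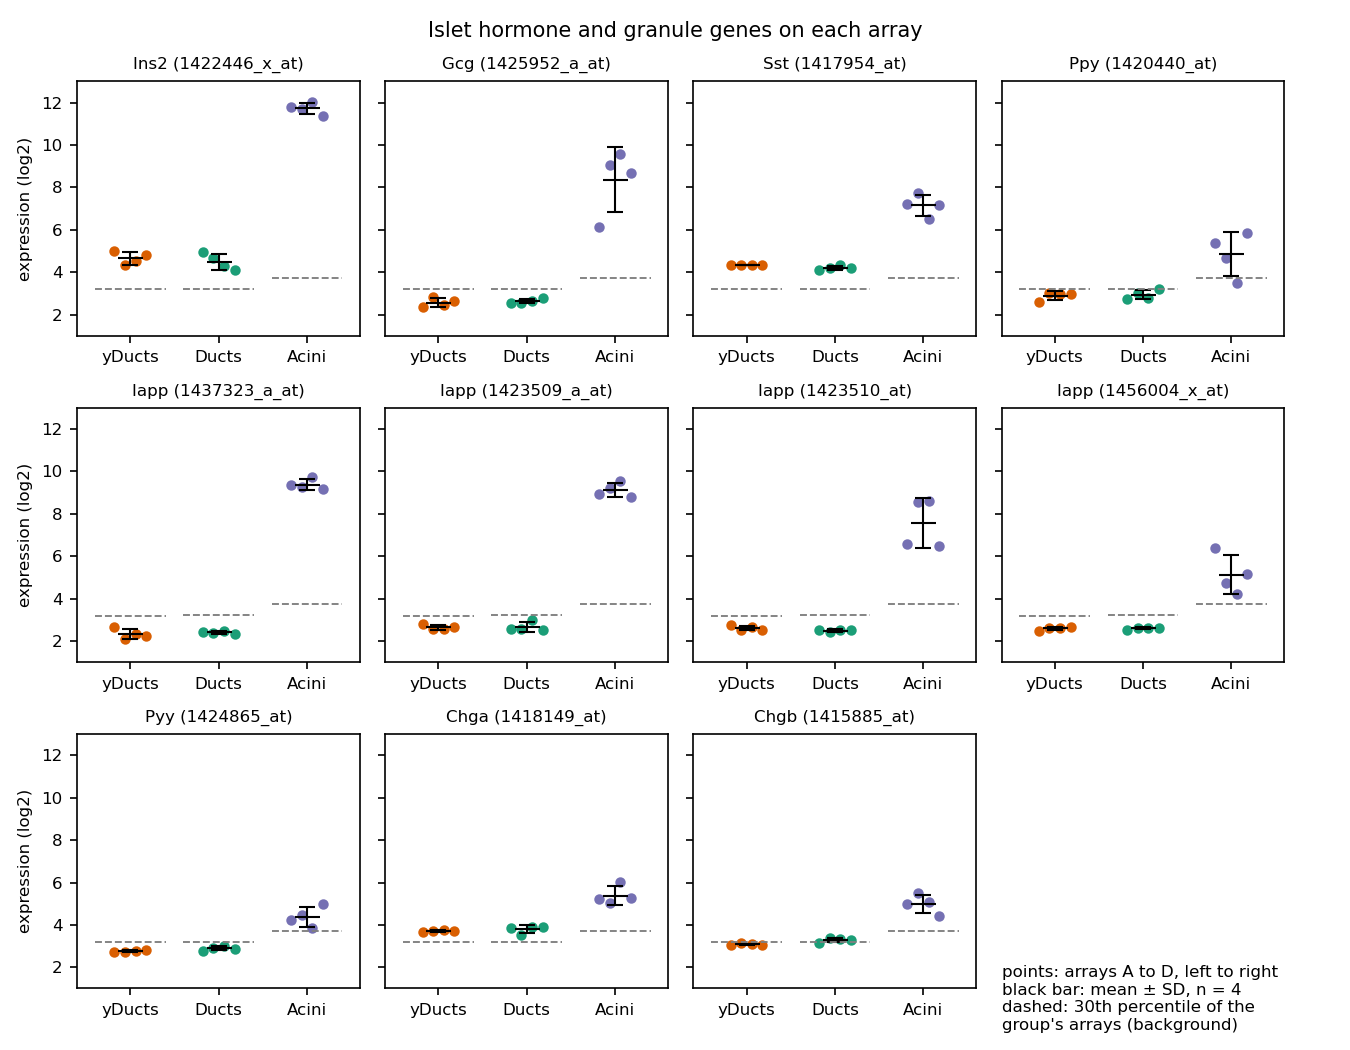
Expression (log2) of the 11 probe sets on each array, with groups on the horizontal axis, 1 point per array, the mean ± SD as a black bar and the background level (30th percentile) as a dashed line. In every panel the 4 Acini points lie above all 8 organoid points, and the organoid points lie mostly below the dashed line except for Ins2, Sst and Chga and, in Ducts, Chgb.

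Ins2, the insulin gene whose product makes cells take up glucose, differed from Acini by over 7 log2 units in both kinds of organoid. Its values were 5.0, 4.32, 4.52 and 4.82 on yDucts arrays A to D, 4.94, 4.67, 4.27 and 4.11 on Ducts arrays, and 11.81, 11.69, 12.04 and 11.39 on Acini arrays. The organoid groups overlapped each other and were far from Acini. In Acini the probe set ranked at the 99.1 to 99.4 percentile of its array, and in the organoids close to the middle, at the 49.6 to 57.1 percentile in yDucts and the 46.9 to 56.4 percentile in Ducts. The mean was 4.66 ± 0.30 in yDucts, 4.50 ± 0.38 in Ducts and 11.73 ± 0.27 in Acini. The difference from Acini was -7.07 ± 0.22 in yDucts (SE, 134-fold lower, adjusted p = 2.03e-11) and -7.23 ± 0.22 in Ducts (151-fold lower, adjusted p = 1.45e-11). Under cyclic loess it was -7.99 in yDucts (254-fold) and -8.16 in Ducts (286-fold). Unlike most of the list, Ins2 stayed above the background level on all 8 organoid arrays. Different probe sets are not on a common scale, so a mid-array value is not by itself a measure of transcript.

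Iapp encodes amylin, the peptide that beta cells release with insulin. Its probe set 1437323_a_at read 2.66, 2.08, 2.32 and 2.23 in yDucts, 2.44, 2.36, 2.48 and 2.33 in Ducts, and 9.34, 9.27, 9.73 and 9.19 in Acini. All 8 organoid values were below background and the Acini values kept within a range of 0.54. The difference was -7.06 ± 0.16 in yDucts (adjusted p = 6.84e-13) and -6.98 ± 0.16 in Ducts (adjusted p = 7.54e-13). Because the organoid values are only background, the fold is a bound, computed with values under the 30th percentile raised to it, and was at least 72.9-fold lower in yDucts and at least 72.1-fold lower in Ducts. The probe set 1423509_a_at read 8.95, 9.24, 9.56 and 8.80 in Acini, with bounds of at least 61.5-fold and at least 60.9-fold. The remaining pair was less even over the Acini arrays. The probe set 1423510_at read 6.56, 8.58, 8.60 and 6.49 in Acini, and was at least 20.6-fold lower in yDucts and at least 20.4-fold lower in Ducts. The probe set 1456004_x_at read 6.38, 4.72, 4.23 and 5.17 in Acini, with bounds of at least 3.81-fold and at least 3.77-fold. The 4 Iapp probe sets therefore gave the same direction with bounds of different sizes.

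Gcg, which encodes glucagon, the alpha cell hormone that raises blood glucose, was the most uneven of the 11 probe sets in Acini. It read 2.34, 2.84, 2.43 and 2.65 in yDucts, 2.54, 2.57, 2.65 and 2.76 in Ducts, and 6.15, 9.06, 9.60 and 8.66 in Acini. Acini A stood apart from the other Acini arrays by more than 2 log2 units, and yet was well above every organoid array. Gcg was at least 36.1-fold lower in yDucts (difference -5.80 ± 0.53, adjusted p = 6.66e-07) and at least 35.7-fold lower in Ducts (-5.74 ± 0.53, adjusted p = 7.61e-07), with all 8 organoid arrays below background. Without Acini A the difference was -6.54 in yDucts and -6.48 in Ducts.

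Sst encodes somatostatin, the delta cell hormone that restrains the release of insulin and glucagon. It read 4.32, 4.32, 4.33 and 4.32 in yDucts, 4.09, 4.22, 4.32 and 4.18 in Ducts, and 7.21, 7.72, 6.53 and 7.18 in Acini. As for Ins2, the organoid values were above background and near the middle of the array. The difference was -2.84 ± 0.20 in yDucts (7.15-fold lower, adjusted p = 7.14e-08) and -2.96 ± 0.20 in Ducts (7.77-fold lower, adjusted p = 5.16e-08).

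Ppy and Pyy encode pancreatic polypeptide and peptide YY, related peptides of the neuropeptide Y family, and are next to each other on chromosome 11. Ppy read 2.58, 3.02, 2.97 and 2.98 in yDucts, 2.75, 3.04, 2.78 and 3.22 in Ducts, and 5.36, 4.69, 3.47 and 5.86 in Acini. Acini C was under that array's own background of 3.64, although still above every organoid array. Ppy had the highest adjusted p of the list, 0.000467 for yDucts (difference -1.96 ± 0.38, at least 3.14-fold lower) and 0.000599 for Ducts (-1.90 ± 0.38, at least 3.09-fold lower). Under cyclic loess the Ppy difference was -1.38 in yDucts and -1.34 in Ducts. Pyy read 2.73, 2.74, 2.77 and 2.82 in yDucts, 2.77, 2.93, 2.99 and 2.88 in Ducts, and 4.22, 4.47, 3.86 and 4.97 in Acini. In Acini it ranked at the 35.5 to 57 percentile of the array. Its difference was -1.61 ± 0.20 in yDucts (at least 2.27-fold lower, adjusted p = 8.75e-06) and -1.49 ± 0.20 in Ducts (at least 2.25-fold lower, adjusted p = 1.84e-05). These are close to the 5th percentile of the dim probe sets given above, -1.46 and -1.43, and the part of the higher Acini background in the Pyy difference was not tested.

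Chga and Chgb encode chromogranins A and B, acidic proteins that pack hormones in dense-core granules of neuroendocrine cells in general. Chga read 3.65, 3.72, 3.76 and 3.69 in yDucts, 3.84, 3.52, 3.90 and 3.92 in Ducts, and 5.22, 5.02, 6.03 and 5.28 in Acini. It was above background in all 3 groups and was 3.21-fold lower in yDucts (difference -1.68 ± 0.20, adjusted p = 6.45e-06) and 3.02-fold lower in Ducts (-1.59 ± 0.20, adjusted p = 1.08e-05). Chgb read 3.05, 3.13, 3.09 and 3.07 in yDucts, 3.15, 3.38, 3.34 and 3.29 in Ducts, and 4.99, 5.50, 5.07 and 4.44 in Acini. It was below background on all 4 yDucts arrays and on 1 of 4 Ducts arrays. It was at least 3.49-fold lower in yDucts (difference -1.92 ± 0.19, adjusted p = 1.28e-06) and 3.27-fold lower in Ducts (-1.71 ± 0.19, adjusted p = 3.71e-06). Under cyclic loess the Chga difference was -1.21 in yDucts and -1.14 in Ducts, and that of Chgb -1.35 in yDucts and -1.16 in Ducts. The 5th percentile of the dim probe sets was -1.46 in yDucts and -1.43 in Ducts. The part of the higher Acini background in the chromogranin differences was not tested. Over the list, group means were below background for 8 of 11 probe sets in yDucts, 7 of 11 in Ducts and 0 of 11 in Acini.

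**Figure D2:**
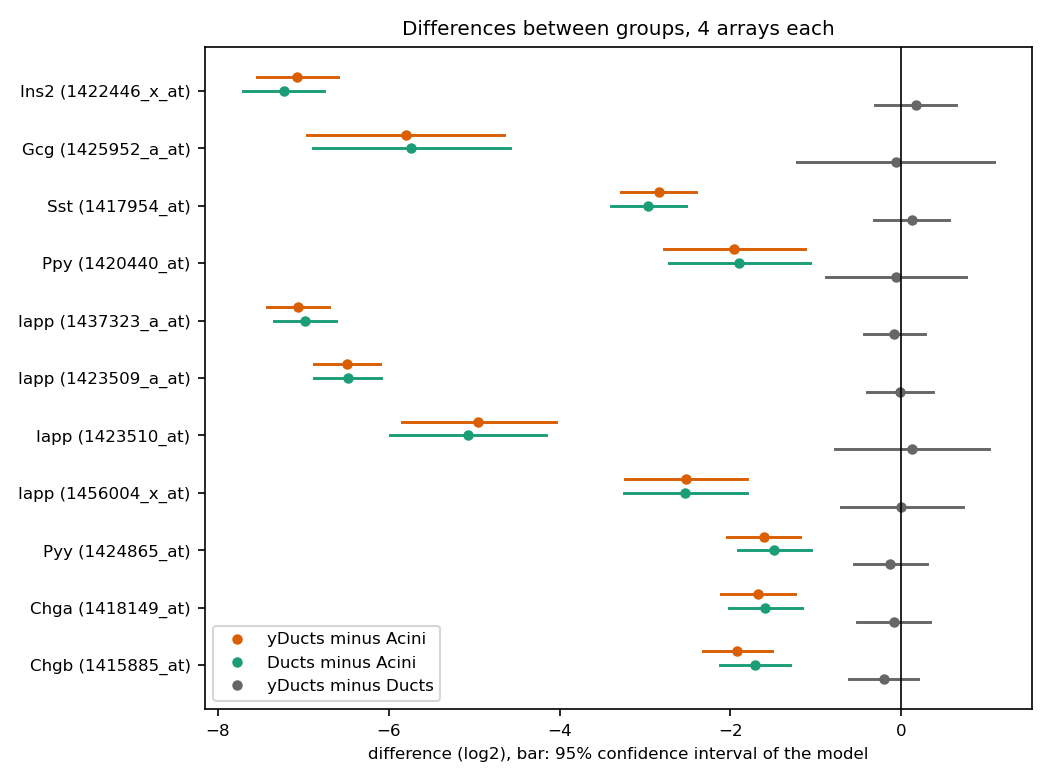
Difference of group means (log2, horizontal axis) for each probe set, with the 95% confidence interval of the model, for yDucts minus Acini, Ducts minus Acini and yDucts minus Ducts. Both sets of intervals against Acini lie wholly below 0 for all 11 probe sets, while every yDucts minus Ducts interval contains 0.

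The comparison of yDucts with Ducts asks whether organoids of induced acinar origin differ from those of native ducts. In these genes 0 of 11 probe sets passed the test (limma, adjusted p from 0.793 to 0.999), where 2.32% of all tested probe sets were called. At an unadjusted p under 0.05 the count was again 0 of 11, against 4409 of all 33436 tested probe sets. The differences ran from -0.20 for Chgb to 0.17 for Ins2. For Ins2 the 95% interval of yDucts minus Ducts was -0.31 to 0.64, for Sst -0.32 to 0.56, and for the Iapp probe set 1437323_a_at -0.44 to 0.28. Gcg had the widest interval, -1.22 to 1.09. The model shares 1 estimate of spread per probe set over the 3 groups, so the uneven Acini values of Gcg widened it, whereas the organoid values themselves had an SD of 0.22 in yDucts and 0.10 in Ducts. Chgb was the one probe set whose organoid groups did not overlap, all 4 yDucts arrays being lower (-0.20, interval -0.61 to 0.20, adjusted p = 0.793), against 5.35% of all tested probe sets that were lower without overlap. The SD of Chgb was 0.03 in yDucts and 0.1 in Ducts but 0.44 in Acini, so the Acini values widened its interval too. For the genes below background in both groups these intervals compare background readings.

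Among the Acini arrays the genes of the list did not vary as 1 block. Ins2 and the Iapp probe set 1437323_a_at were even, with an SD of 0.27 and 0.24, which are at the 28.2 and 22 percentile of the SDs of all tested probe sets. Gcg had an SD of 1.53, and only 3 of the 33436 tested probe sets had a larger one. Ppy had 1.03, at the 99.2 percentile. The median SD of the 11 was 0.47, beside 0.38 over all tested. The order of the arrays differed too. Gcg was highest on Acini C and lowest on Acini A, while Ppy and Pyy were both highest on Acini D and lowest on Acini C. Ins2 was highest on Acini C and lowest on Acini D. Acini C was the highest array for 6 of the 11 probe sets and the lowest for 4. Within Iapp, 1423510_at was lowest on Acini A and D and 1456004_x_at was highest on Acini A, although both read the same gene. The Gapdh 3′ minus 5′ difference was 1.91 on Acini A, 1.33 on B, 1.29 on C and 1.61 on D, so that arrays A and D, on which Gcg and 1423510_at were lower than on B and C, had the higher ratios. Its part in the spread was not tested.

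**Figure D3:**
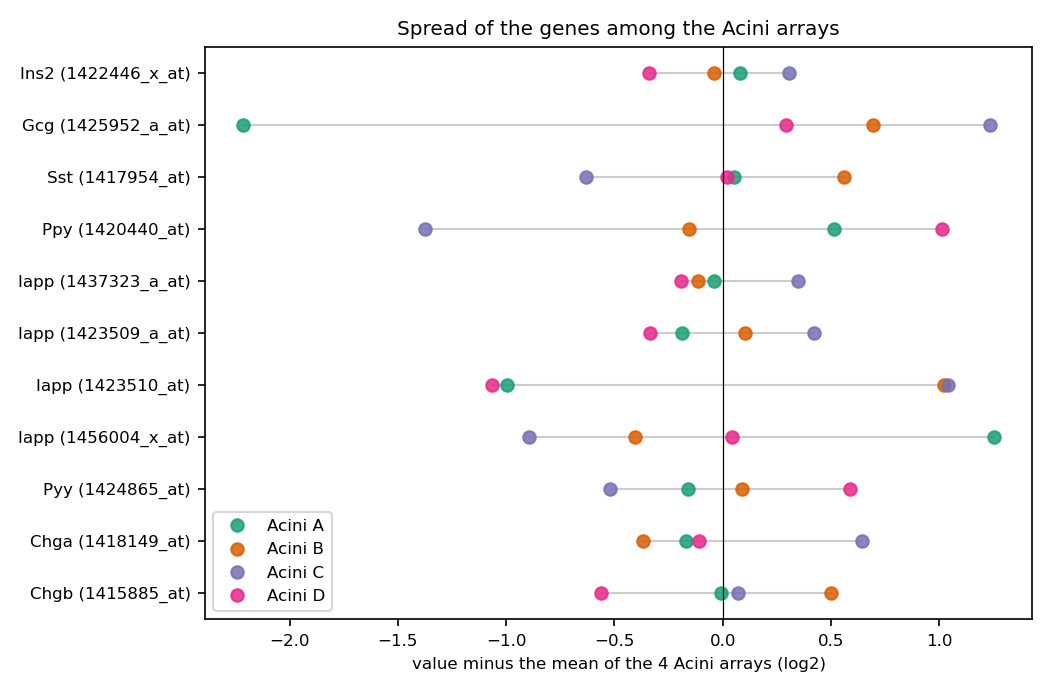
Value on each Acini array minus the mean of the 4 Acini arrays (log2, horizontal axis) for each probe set, with colours for arrays A to D. The points of Ins2 and of the Iapp probe set 1437323_a_at are close together, while Gcg on Acini A lies far to the left and Ppy runs the other way, with Acini C lowest and Acini D highest.

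The genes most like Ins2 and Gcg over the 12 arrays were taken from 5573 tested probe sets outside the list, each with 1 symbol and an SD above 1. For Ins2 these were Rab26 (r = 0.999), Cela3b, Slc39a5, Slc38a5 and Pnliprp2 (r = 0.998 each). Cela3b is an elastase and Pnliprp2 a lipase-related protein of acinar cells. The correlation rests on the gap between Acini and organoids, which genes of different cell types share. For Gcg they were Fgl2 (r = 0.996), Adgrl4 (0.995), Prrt4 (0.993), Gna14 (0.992) and Cyp7b1 (0.991). Adgrl4 is an endothelial receptor. Fgl2 read 5.17, 7.19, 7.02 and 6.58 on Acini A to D and Gna14 read 4.44, 6.93, 6.98 and 5.96, so each was lowest on Acini A, as Gcg was. These genes were picked for their correlation with Gcg, so a shared low Acini A follows in part from the choice.

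Genes that act with these hormones were examined in 4 lists, with 1 probe set per gene, the brightest over all arrays. The list of granule and prohormone processing had 12 genes, of which 8 were tested. In yDucts against Acini 5 were lower, 2 higher and 1 not called, and in Ducts 5 were lower, 1 higher and 2 not called, with medians of -0.83 and -1.03. Over all tested probe sets 71.3% were called in either direction in yDucts and 71.2% in Ducts, with those lower as given above. The untested Slc30a8, Scg5 and Resp18 had means below background even in Acini. Scg2, also untested, averaged 2.76 in each kind of organoid and 5.18 in Acini. Ptprn2, a phosphatase-like protein of the granule membrane, averaged 3.53 ± 0.09 in yDucts, 3.42 ± 0.25 in Ducts and 9.61 ± 0.39 in Acini, and fell by 6.09 in yDucts and fell by 6.19 in Ducts. A second Ptprn2 probe set had smaller differences, -1.59 in yDucts and -1.49 in Ducts, near the 5th percentile of the dim probe sets. Pcsk1, the convertase that opens proinsulin, fell by 1.5 in yDucts and fell by 1.47 in Ducts. Pcsk1n, its inhibitor, fell by 1.0 in yDucts and fell by 1.09 in Ducts. Under cyclic loess Pcsk1 was -0.94 in each, and Pcsk1n -0.58 in yDucts and -0.68 in Ducts. Ptprn, the relative of Ptprn2, read 5.91, 6.06, 5.94 and 5.59 in yDucts, 4.96, 4.91, 4.93 and 4.72 in Ducts, and 6.82, 6.60, 6.35 and 6.65 in Acini. The groups did not overlap, and Ptprn was 1.0 ± 0.15 higher in yDucts than in Ducts (adjusted p = 0.00354), the one gene of this list that passed that test. Of all tested probe sets 2.32% passed it. Cpe and Pam, enzymes that trim and amidate peptides, differed from the rest of the list and are named after their values were seen. Cpe was 1.55 higher in yDucts than in Acini (adjusted p = 0.0212), with -0.51 in Ducts (adjusted p = 0.408). It read 10.13, 10.33, 8.02 and 7.34 on Ducts arrays A to D, so that A and B were above and C and D below all Acini arrays, which ran from 8.98 to 9.83. A second Cpe probe set fell by 1.68 in yDucts and fell by 1.99 in Ducts. Pam was 1.21 higher in yDucts (adjusted p = 0.00226) and 0.76 higher in Ducts (adjusted p = 0.0325). Cpe and Pam are also expressed outside endocrine cells.

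The list of glucose sensing and hormone release had 9 genes, of which 4 were tested. 3 of the 4 were lower in each kind of organoid, against 31.6% of all tested probe sets in yDucts and 31.2% in Ducts. The untested Abcc8, Gipr and Ucn3 had means below background even in Acini. Ero1b, the oxidoreductase that folds proinsulin and is also abundant in acinar cells, fell by 4.52 in yDucts and fell by 4.23 in Ducts (under cyclic loess -5.64 in yDucts and -5.35 in Ducts). Glp1r, the receptor of the incretin GLP-1, was below background on all 8 organoid arrays and passed the filter on Acini alone. It was at least 2.16-fold lower in yDucts and at least 2.14-fold lower in Ducts, and its difference of -1.42 in yDucts lies within the 5th percentile of the dim probe sets, -1.46. Kcnj11, the pore of the ATP-sensitive potassium channel, fell by 0.90 in yDucts and fell by 0.93 in Ducts, and under cyclic loess the differences were -1.98 in yDucts and -2.01 in Ducts. A second Kcnj11 probe set, whose yDucts mean was below background, had differences of -1.46 in yDucts and -1.38 in Ducts. Slc2a2, the glucose transporter GLUT2, read 4.81, 4.70, 4.48 and 4.04 in yDucts, 3.0, 3.23, 2.69 and 3.09 in Ducts, and 3.57, 2.74, 4.07 and 2.86 in Acini. It was above background only in yDucts as a group mean, and was below background on 3 of 4 Ducts arrays and 3 of 4 Acini arrays. It was at least 2.45-fold higher in yDucts than in Ducts (fitted difference 1.51 ± 0.28, adjusted p = 0.0112). It was at least 1.60-fold higher in yDucts than in Acini (1.20 ± 0.28, adjusted p = 0.00169), where yDucts D was under Acini C, so that these groups overlapped. The difference from Ducts lost its call without yDucts A (1.4) and without Ducts C and D together (1.39).

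The list of islet transcription factors had 13 genes, of which 6 were tested. In both comparisons 4 were lower, against 31.6% of all tested probe sets in yDucts and 31.2% in Ducts. The untested Nkx2-2 and Insm1 had means below background even in Acini. Neurod1, a factor of endocrine differentiation, was below background on all 8 organoid arrays and passed the filter on Acini alone. It was at least 2.02-fold lower in yDucts and at least 2.0-fold lower in Ducts. Its differences were -1.63 in yDucts and -1.62 in Ducts, near the 5th percentile of the dim probe sets. Under cyclic loess they were -1.07 in yDucts and -1.08 in Ducts. Pax4, a factor of beta cell development, fell by 1.69 in yDucts and fell by 1.60 in Ducts. Hhex, which delta cells use and which is also a gene of pancreatic duct cells, was 5.31 higher in yDucts and 4.78 higher in Ducts, against 4.18 in yDucts and 3.66 in Ducts under cyclic loess. Nkx6-1, a beta cell factor that progenitors also express, was at least 1.77-fold higher in Ducts than in Acini, whose mean was below background (fitted difference 1.14, adjusted p = 0.00211), and in yDucts the difference was 0.39 (adjusted p = 0.205), which became a call under quantile normalization (0.83) and cyclic loess (0.95). The difference between the organoids did not pass the test (-0.74, adjusted p = 0.226). Among 8 hormones of other endocrine cells, 5 were tested and 3 were lower in both comparisons, set against the same 31.6% and 31.2%. The untested Cck, Nts and Tac1 had means below background even in Acini. Sct, secretin, fell by 2.06 in yDucts and fell by 2.12 in Ducts, and Gip fell by 1.44 in each. Under cyclic loess Gip was -0.88 in yDucts and -0.9 in Ducts. Gast, gastrin, a peptide of the organoid medium, fell by 0.79 in yDucts and fell by 0.98 in Ducts. Tph1, an enzyme of serotonin synthesis, had differences of 0.19 in yDucts and 0.11 in Ducts that did not pass the test, but was called higher under quantile normalization (0.66 in yDucts and 0.57 in Ducts) and cyclic loess (0.76 in yDucts and 0.66 in Ducts). The call of Gast was lost in both comparisons under these 2 scalings. In yDucts it was also lost after centring on the median (-0.57) and when Acini B, Acini D or yDucts C was left out.

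**Figure D4:**
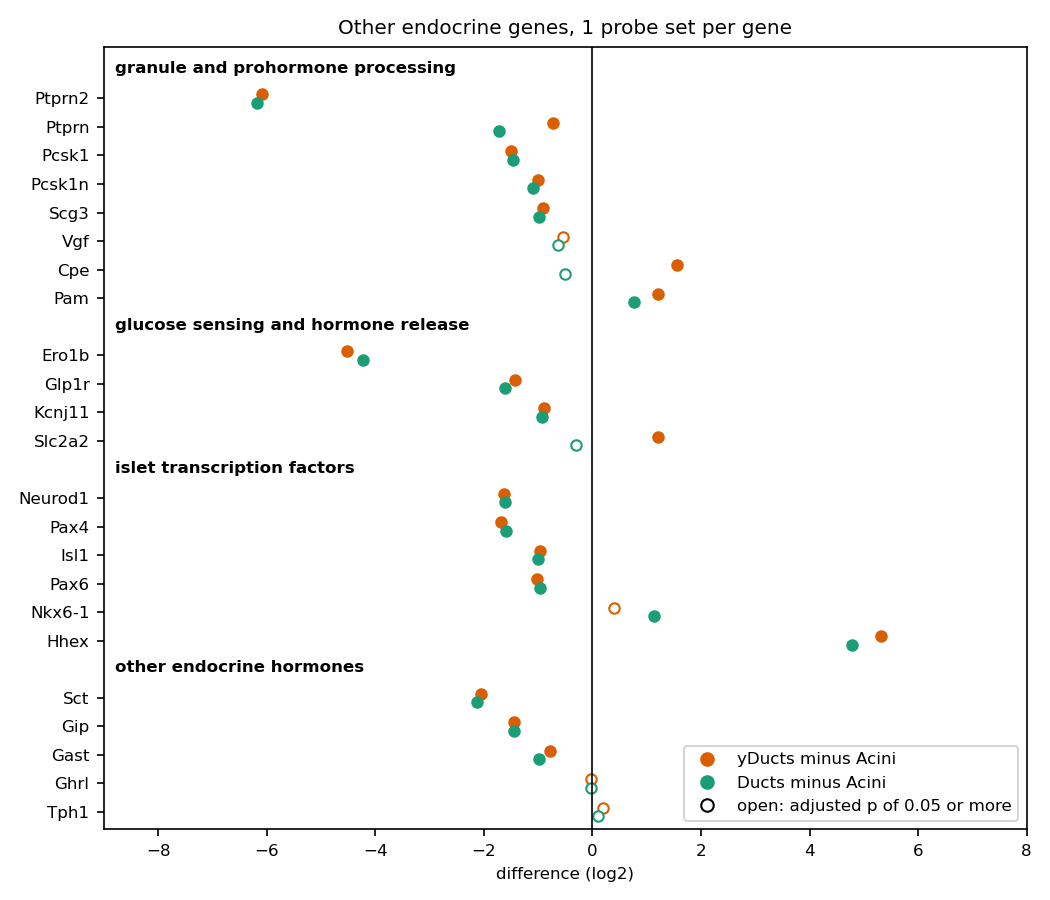
Difference (log2, horizontal axis) in yDucts minus Acini and Ducts minus Acini for the tested genes of the 4 endocrine lists, filled where the adjusted p was under 0.05. Most genes lie left of 0 in both comparisons, with Ptprn2 and Ero1b farthest, while Hhex, Pam, Nkx6-1 and Tph1 lie to the right, as do Cpe and Slc2a2 in yDucts, with open circles for Tph1 in both and Nkx6-1 in yDucts.

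The Acini samples also held transcripts of other cells. All 6 stromal markers (Dcn -7.41 in yDucts and -7.47 in Ducts), all 6 endothelial markers (Plvap -5.44 in yDucts and -5.39 in Ducts) and 5 of 6 immune markers, all except Cd68, which was higher, (Lyz2 -3.49 in yDucts and -3.50 in Ducts) were lower in both kinds of organoid, against 31.6% of all tested probe sets in yDucts and 31.2% in Ducts. Col3a1, Pecam1, Tek, Emcn and Ptprc passed the filter on the Acini arrays alone. Of 3 tested neural and glial markers, 2 were lower in yDucts and 3 in Ducts. Under quantile normalization and cyclic loess only Sox10 was called lower in either comparison, since S100b and Stmn2 did not pass the test. In Acini Sox10 averaged 7.93, S100b 4.65 and Stmn2 4.34. The summed level of this list was 78.7 to 91.1 in yDucts, 77.3 to 91.3 in Ducts and 292 to 313 in Acini. Different probe sets are not on a common scale, so sums are read between groups and not between lists. Of the 8 islet genes, Ins2 had the highest Acini mean, 11.73. Group means were below background for 5 of the 8 in yDucts and 4 in Ducts. The summed linear level of the 8 islet genes ran from 89.8 to 97.4 in yDucts, 89.5 to 96.2 in Ducts and 3830 to 5960 in Acini. That of the stromal markers ran from 68.3 to 73.8 in yDucts, 62.4 to 75.5 in Ducts and 3430 to 6440 in Acini, and that of the endothelial markers from 64.4 to 73.4 in yDucts, 63.4 to 76.1 in Ducts and 758 to 1250 in Acini. Immune markers summed to 161 to 220 in yDucts, 176 to 282 in Ducts and 817 to 1090 in Acini. The islet genes were thus lower in the same direction as the stromal, endothelial and most immune markers, and the part of these cells in the islet gene differences was not tested. The acinar markers had a summed level of 275 to 320 in yDucts, 121 to 252 in Ducts and 117000 to 120000 in Acini.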

How the data were processed

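Total RNA of 12 samples was hybridised to Affymetrix mouse expression arrays. The log2 values were deposited as 1 table, which the authors had made by RMA per the labels, with no version given. The 30th percentile of the arrays differed between groups, so the 12 columns do not share 1 distribution, and whether the groups were normalized together is not stated. Of 45101 probe sets, 34958 carried 1 gene symbol in the platform annotation, 932 several and 9211 none, and only those with 1 symbol were named. After removal of 64 control probe sets, probe sets above the 30th percentile of their array on at least 4 arrays were tested (33436) with limma 3.58.1 in R 4.3.3 (1 mean per group, all 12 arrays in 1 model, two-sided), with Benjamini-Hochberg adjustment within each comparison and a threshold of 0.05. The script was tested on simulated data. Precision is set by having 4 arrays per group.

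The members and lists were chosen with earlier results of these data known. All probe sets of the list are named, and of each other list up to 4 genes with the largest difference of Ducts from Acini, genes called between yDucts and Ducts, and the 5 genes most correlated with Ins2 and with Gcg. The 1 probe set per gene was that with the highest mean over the 12 arrays. Alternatives were quantile normalization, cyclic loess, centring, other filters, array weights, a variance trend, a replicate block, leaving out arrays and other background percentiles. No array pair shared more than 2.45% identical values. The labels give no batch or scan date.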

Additional observations from a re-analysis of the deposited data

Results flagged for a closer look

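Arrays that stood apart from the other 3 of their group by Dixon's criterion (gap over range, 95% level) were found in 10 of 183 groups examined, 5.46%, and chance alone gives about 1 in 20. In the islet genes there were 3 among 33 groups. Sst read 4.33 on yDucts C and 4.32 on the other yDucts arrays. Ppy read 2.58 on yDucts A, against 2.97 to 3.02 on the others, and the Iapp probe set 1423509_a_at read 2.98 on Ducts C, against 2.51 to 2.58. Both are below the background level. The wide Gcg values of Acini did not meet the criterion.

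Outside the list, Pcsk1 read 3.24 on yDucts A (3.51 to 3.54 on the others), Nkx6-1 read 3.66 on yDucts D (3.93 to 3.97), Pax4 read 3.71 on yDucts B (3.83), and Plvap read 3.47 on yDucts B (3.67 to 3.70). Cpa1 read 14.57 on Acini B (14.60). Krt19 read 11.03 on yDucts B, against 12.57 to 12.85. Prrt4, which was picked for its correlation with Gcg, read 6.58 on Acini A, against 7.61 to 7.69.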

How the results depend on the processing

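The direction and the call of every islet probe set against Acini were kept in all 246 values of each comparison under 23 alternatives, with an adjusted p of at most 0.00529 for yDucts and 0.00627 for Ducts (Ppy, quantile normalization). None was called between yDucts and Ducts, where the lowest adjusted p was 0.0563 (Ins2). Against Acini, the lower direction of Gcg, Pyy and every Iapp probe set was fixed by their passing the main filter on Acini alone. For them the kept direction is not a test. With the filter at the 50th percentile the count of lower probe sets was 7 in both comparisons, since Ppy, Pyy, Chgb and the Iapp probe set 1456004_x_at were then not tested. With the replicate block the counts were 11 and 11, and 0 between the organoids. Same-lettered arrays did not deviate together (r from -0.30 to 0.11, over 0.1 in 1 of 12 pairs), so the letters were not taken as pairs. The count of lower probe sets was 11 in each comparison without any 1 array. Background at the 40th percentile lowered every bound. On the log2 scale that for Pyy was then 0.69 in yDucts and 0.68 in Ducts, against 1.18 and 1.17 at the 30th percentile, that for Chgb 1.31 in yDucts, against 1.80, and that for the Iapp probe set 1437323_a_at 5.70 and 5.68, against 6.19 and 6.17.

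Outside the list, Stmn2, a neural marker, had a difference of -0.54 in yDucts against Acini. Under cyclic loess it lost its call and its sign changed, with a value that did not pass the test (0.02, adjusted p = 0.941). The cause was not tested. Named genes outside the list lost or gained a call in 18 further values of 1136 in yDucts against Acini, 15 in Ducts against Acini and 16 between the organoids. The median difference over all tested probe sets, 0.13 for yDucts and 0.16 for Ducts, was 0.35 and 0.37 after centring on array medians and -0.01 and 0.00 after quantile normalization. Pyy was then -1.25 in yDucts and -1.13 in Ducts. Under cyclic loess Krt19 was 3.62 in yDucts and 3.69 in Ducts, Cpa1 -12.23 and -12.26, and Dcn -8.29 and -8.35. Ptprn in yDucts was -1.46 under quantile normalization. Between yDucts and Ducts 777 probe sets were called, against 11754 with array weights, 447 with quantile normalization and 357 to 4065 without 1 or 2 arrays. With no filter 18107 probe sets were lower in yDucts than in Acini and 17637 in Ducts, against 10558 and 10430, and with the filter at the 50th percentile 5650 and 5634.

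Group means of 8 of 11 islet probe sets in yDucts and 7 in Ducts were below background, so the fold changes of Gcg, Iapp, Ppy and Pyy, and of Chgb in yDucts, are lower bounds. Whether the organoids differ from each other below that level could not be measured. The Ins2 probe set may also read Ins1.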
